A study of Mus musculus with 8 samples.

Results

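The tubulin isotypes compared here are 5 alpha-tubulin genes (Tuba1a, Tuba1b, Tuba1c, Tuba4a and Tuba8) and 5 beta-tubulin genes (Tubb2a, Tubb2b, Tubb4b, Tubb5 and Tubb6). They were chosen by symbol, and all 10 were found among the 33105 Ensembl genes of the read count table and passed the filter on low counts. The measurements are messenger RNA sequencing counts from hearts of C57BL/6J mice, in 4 libraries of mice with mitral regurgitation (MR) produced by minimally invasive surgery and 4 libraries of Sham mice. Regurgitation sends blood back through the valve at every beat and so enlarges the volume the heart must move, and the study addresses the hypertrophy under this load. Both groups are wild-type mice of 1 strain. No source used here gives the age of the mice, the time after surgery or the part of the heart taken. Nor do the labels say that each library is a separate animal, so p-values rest on a spread between libraries that may be partly technical.

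Alpha and beta tubulin pair into dimers that stack into microtubules, the hollow filaments along which motor proteins carry cargo. Several genes encode each partner, and their products differ most in the acidic tail at the end of the protein, where enzymes add and remove residues. In heart muscle cells microtubules run between the contractile filaments and resist their shortening. Removal of the last tyrosine of alpha tubulin (detyrosination) by vasohibins ties microtubules to the desmin network and raises that resistance, and the ligase TTL puts the tyrosine back. A denser microtubule network and more tubulin protein have been described in pressure-loaded heart muscle of the cat.

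The ends of the coding sequences are shown because they differ between isotypes and hold the residue on which detyrosination acts. Each line gives the last 30 coding bases before the stop codon, 5′ to 3′ on the coding strand, read from GENCODE transcripts of GRCm38 (the assembly that mm10 names), with the final codon in capitals.
Tuba1c (chr15:99037977-99038006, plus strand): gctgaaggagacgatgagggtgaggaaTAT
Tuba4a (chr1:75215625-75215654, minus strand): tcctatgaggacgaggatgagggagaaGAG
Tuba8 (chr6:121226047-121226076, plus strand): tttgaagaagagaatgagggggaggaaTTT
Tubb2a (chr13:34074471-34074500, minus strand): ttcgaggaggaggagggtgaagatgagGCT
Tubb2b (chr13:34127474-34127503, minus strand): ttcgaggaggaagagggcgaggatgagGCT
Tubb4b (chr2:25222311-25222340, minus strand): tttgaggaggaggctgaggaggaggtgGCT
Tubb5 (chr17:35834985-35835014, minus strand): gatttcggagaggaggcagaagaggagGCC
Tuba1c ends in TAT, a tyrosine codon. Tuba4a ends in GAG, a glutamate codon, and so carries no codon for the last tyrosine, and Tuba8 ends in TTT, a phenylalanine codon. The beta isotypes printed end in alanine codons.

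Coding sequences within a family were alike, which bears on how surely reads were assigned. Tuba1a and Tuba1b shared 98.3% of aligned coding bases, Tuba1b and Tuba1c 97.9%, and Tubb2a and Tubb2b 96.5%. Tuba4a matched the Tuba1 genes at 84.8% to 85.2% and Tuba8 matched them at 78.8% to 79.9%. Of all windows of 100 bases along its transcript, Tuba1a had 65.1% that also occurred exactly in a transcript of another gene. The share was 69.5% for Tuba1b, 53.4% for Tuba1c, 36.9% for Tubb2a and 27.7% for Tubb2b. Gm49450, a gene on the same strand that the read count table lacks, overlaps 473 exon bases of Tuba1a and 426 of Tuba1b. Windows shared through this overlap are included in the shares, although they lie at the same place in the genome. How many windows were shared only in this way was not counted. How the authors counted reads with several matches is not given, so the split of reads within the Tuba1 group and within the Tubb2 pair is uncertain. Tubb4b shared 29.2% of its windows, mainly with its processed pseudogene Tubb4b-ps1, which held 0.688 to 1.41 CPM in MR libraries and 0.998 to 1.32 CPM in Sham libraries. CPM scales each count to a common library size. No window of Tuba4a, Tuba8, Tubb5 or Tubb6 was shared.

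Total counts were 42291511 to 58658094 in MR libraries and 43535272 to 46264464 in Sham libraries, so that 1 count equalled 0.0167 to 0.0237 CPM. On principal components of log2 CPM, the first (30.5% of variance) scored 12.6 to 22.8 in MR libraries and −32.4, −30.1, −15.7 and 7.2 in Sham libraries, the last being Sham replicate 3. On the second component Sham replicate 1 scored 31.2 and the other Sham libraries −19.3 to −6.3. The 8 cardiomyocyte markers summed to 43154 to 49693 CPM in MR and 48014 to 55965 CPM in Sham, so the tissue carried the labelled identity. Of these markers 7 averaged lower in MR, the direction of the abundant tubulins below, and 0 passed in edgeR. At an unadjusted p under 0.05, 5 were lower in edgeR, where 7.29% of all genes tested were lower. DESeq2 called 3 lower, against 2.22% of the genes to which it gave an adjusted p. Myh6 and Myl2 had all MR values below all Sham values, as had 3.91% of all genes tested. The 6 atrial markers summed to 102 to 221 CPM in MR and 48.7 to 79.4 CPM in Sham, most of it Nppa, a natriuretic peptide gene, at 81.4 to 205 CPM in MR and 42 to 65.7 CPM in Sham. Without Nppa, left out after its values were seen, the sums overlapped, at 14.2 to 20.7 CPM in MR and 4.86 to 20.3 CPM in Sham. The overlap came through Sham replicate 1 at 20.3 CPM, and the other Sham libraries, at 4.86 to 13.7 CPM, lay below all MR libraries. Of the 6 atrial markers 0 averaged lower in MR, and 0 passed in edgeR. The 6 markers of activated fibroblasts summed to 271 to 353 CPM in MR and 174 to 201 CPM in Sham. The 6 neutrophil markers summed to 3.42 to 6.27 CPM in MR and 8.96 to 59.3 CPM in Sham. Resident fibroblast (8 markers), endothelial (8), mural (8) and macrophage (8) sums overlapped between the groups. So did those of T and B cells (6), Schwann cells and neurons (8), platelets (5), erythroid cells (5), adipocytes (4) and mesothelium (4). All mesothelial and all erythroid markers averaged higher in MR, and 0 passed in edgeR. The mesothelial sum was 8.93 to 25.3 CPM in MR and 6.22 to 11 CPM in Sham, the erythroid sum 376 to 724 CPM and 309 to 559 CPM. Within the fibroblast list the collagen genes Col1a1 and Col1a2 rose in edgeR without overlap of the groups. Over all genes tested 0.241% rose in edgeR, and 4.19% had all MR values above all Sham values. On the log2 scale Col1a1 rose by 0.81 (edgeR adjusted p = 0.0483) and Col1a2 by 0.63 (edgeR adjusted p = 0.0159). Of these markers only Th, in the Schwann cell and neuron list, was at 0 in every library. The part of the markers in the tubulin values was not tested. In tissue of this kind fewer cells of a type and less RNA per cell cannot be told apart.

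Levels of different genes can be compared only per length. On that scale, TPM (counts divided by the length of all annotated exons and scaled to a common total), Tuba4a was the most abundant isotype in every library, at 194 ± 21.5 TPM in MR and 303 ± 67.9 TPM in Sham (SD, n = 4 each). Tubb4b was the most abundant beta isotype, at 119 ± 20.2 TPM in MR and 168 ± 26.2 TPM in Sham. Tuba8 came next, at 78.3 ± 13.6 TPM in MR and 106 ± 14.9 TPM in Sham. Within each group these 3 did not overlap with each other or with the isotypes below them. Tuba1b averaged 54.6 TPM in MR and 65.3 TPM in Sham, Tubb5 51.0 TPM in MR and 49.6 TPM in Sham, and Tuba1a 46.8 TPM in MR and 38.0 TPM in Sham. Tuba1b and Tubb5 overlapped within each group, as did Tubb5 and Tuba1a. Tubb2a, Tuba1c and Tubb6 lay together at 16.9 to 27.5 TPM in MR libraries and 19.2 to 32.5 TPM in Sham libraries. Tubb2b was the rarest, at 1.65 to 3 TPM in MR and 1.56 to 2.36 TPM in Sham, from 74 to 140 reads per MR library and 67 to 108 per Sham library.

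The 3 most abundant isotypes had the lowest p-values of the family, and all were lower in MR hearts, but none passed the test over all genes. By the edgeR quasi-likelihood test with Benjamini-Hochberg adjustment over 16603 genes, 0 of the 10 isotypes had an adjusted p under 0.05, a threshold that 0.458% of all genes passed. At an unadjusted p under 0.05, 4 isotypes (Tuba4a, Tuba8, Tubb4b and Tuba1b) were lower and 0 higher in edgeR, where 7.29% of all genes tested were lower and 7.78% higher at that level. Tuba1a, which was higher in MR, lay just outside at an unadjusted edgeR p of 0.0522. With scaling by library totals alone the unadjusted edgeR p was 0.0256 for Tuba1a and 0.0619 for Tuba1b. DESeq2 called 3 of the 10 lower (Tuba4a, Tuba8 and Tubb4b) and 0 higher, against 2.22% lower and 2.37% higher among the genes to which it gave an adjusted p. Limma-voom with quality weights called the same 3 lower and 0 higher, against 1.22% lower and 1.37% higher among all genes. Without Sham replicate 3, edgeR called 4 lower and 0 higher, against 2.32% lower and 2.96% higher among all genes. Over the 10 isotypes 7 log2 fold changes were negative and 3 positive, with a median of −0.14, while the median over all genes tested was 0.00.

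**Figure D1:**
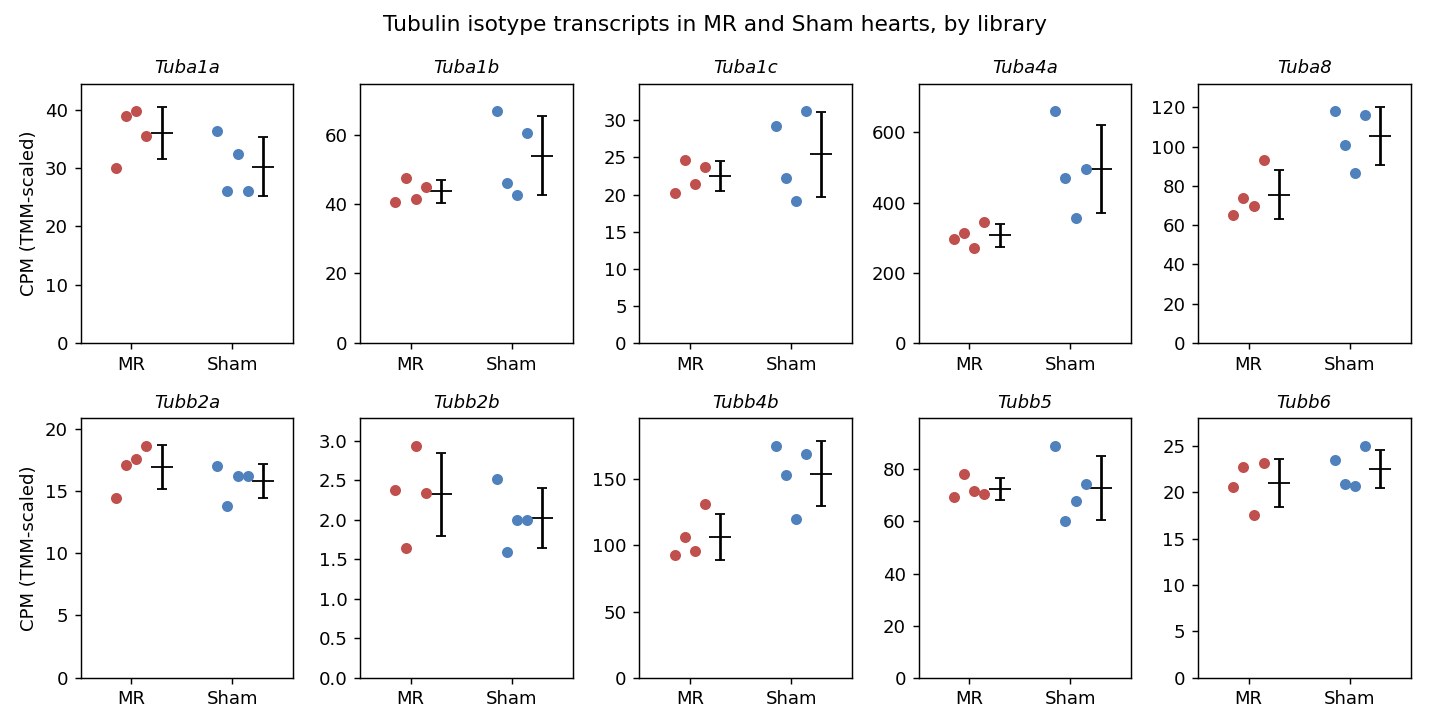
Level of each tubulin isotype in CPM (TMM-scaled, linear axis from 0), with a point per library, MR at the left and Sham at the right of each panel, and bars giving the mean and SD of 4 libraries. Tuba4a lay at 270 to 346 CPM in MR and 356 to 660 CPM in Sham without overlap, while the groups overlapped in each of the other 9.

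Tuba4a encodes an alpha tubulin that, like Tuba8, lacks a final tyrosine without detyrosination. It had 296, 313, 270 and 346 CPM in MR replicates 1 to 4, against 660, 469, 356 and 495 CPM in Sham replicates 1 to 4. Every MR library lay below every Sham library, with MR replicate 4 and Sham replicate 3 nearest to each other and Sham replicate 1 far above the rest. It was the only isotype whose groups did not overlap, and 3.91% of all genes tested had all MR values below all Sham values. The log2 fold change was −0.69 (SE 0.16), and the adjusted p of 0.074 in edgeR missed the threshold. With other settings the adjusted p of Tuba4a ran from 1.3e-08 (edgeR with no filter on low counts) to 0.208 (without Sham replicate 4). With no filter the log2 fold change stayed at −0.69 while the SE was 0.09, and edgeR called 936 genes over the whole table, against 76. The adjusted p of Tuba4a was 0.000647 in DESeq2 and 0.0285 in limma-voom. Without Sham replicate 3 the log2 fold change was −0.82 and the edgeR adjusted p 0.00211, and without Sham replicate 1 they were −0.53 and 0.0654.

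Tuba4a lies on chromosome 1 at 75214228 to 75219865 (GRCm38, minus strand), and 1379 of its 3701 annotated exon bases overlap exons of Stk16, a kinase gene on the opposite strand. Whether counting used strand is not given, so reads of the overlap cannot be assigned surely. Stk16 itself held 19.1 to 21.8 CPM in MR and 18.9 to 21.8 CPM in Sham, with a log2 fold change of −0.00 (SE 0.08, edgeR adjusted p = 0.99).

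Tubb4b encodes a beta tubulin found in many tissues and enriched in cilia. It had 92.9, 106, 96 and 131 CPM in MR replicates 1 to 4 and 175, 153, 120 and 169 CPM in Sham replicates 1 to 4. MR replicate 4 was higher than Sham replicate 3, and these were the only libraries out of order. The log2 fold change was −0.53 (SE 0.13, edgeR adjusted p = 0.0817), with adjusted p from 3.36e-08 (edgeR with no filter, SE 0.08) to 0.239 over the other settings. The adjusted p was 0.00424 in DESeq2 and 0.0415 in limma-voom. In edgeR it was 0.00473 without Sham replicate 3 and 0.049 without MR replicate 4. Tubb4b lies on chromosome 2 at 25222160 to 25224702 (minus strand) and shares 121 exon bases with Fam166a on the opposite strand, a gene at 0.130 CPM or less in every library.

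Tuba8 encodes an alpha tubulin known from muscle, testis and brain. It had 65.4, 73.9, 69.8 and 93.4 CPM in MR replicates 1 to 4, against 118, 101, 86.6 and 116 CPM in Sham replicates 1 to 4. Here too the groups overlapped only through MR replicate 4 and Sham replicate 3. The log2 fold change was −0.48 (SE 0.12, edgeR adjusted p = 0.0862), with adjusted p from 7.23e-07 (edgeR with no filter, SE 0.08) to 0.251 over the other settings. It was 0.00792 in DESeq2, 0.0452 in limma-voom, 0.00977 in edgeR without Sham replicate 3 and 0.0458 without MR replicate 4. Tuba8 lies on chromosome 6 at 121210696 to 121226854 (plus strand) and shares 368 exon bases with the antisense gene Gm15856, which held 0.703 to 0.864 CPM in MR and 0.521 to 1.08 CPM in Sham.

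Tuba1b, an alpha tubulin made in most cells, had 40.7, 47.6, 41.4 and 45 CPM in MR and 66.7, 46.1, 42.6 and 60.4 CPM in Sham. Sham replicates 1 and 4 lay above all MR libraries, and the other Sham libraries lay among them. Its log2 fold change was −0.30 (SE 0.13, edgeR adjusted p = 0.285). It passed in edgeR without Sham replicate 3 (adjusted p = 0.0478) and in edgeR with no filter (adjusted p = 0.0109, SE 0.08). The adjusted p reached 0.565 at the highest over the other settings. Tuba1c, its close neighbour on chromosome 15, lay at 20.2 to 24.6 CPM in MR and 19.1 to 31.2 CPM in Sham, with a log2 fold change of −0.18 (SE 0.14).

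Tuba1a, the alpha tubulin known as the main isotype of developing neurons, was the alpha gene with a positive log2 fold change. It had 30, 38.9, 39.7 and 35.5 CPM in MR and 36.4, 26, 32.4 and 26.1 CPM in Sham. The groups overlapped, with MR replicate 1 low in its group and Sham replicates 1 and 3 high in theirs. The log2 fold change was 0.25 (SE 0.12, edgeR adjusted p = 0.339), with 0.19 to 0.35 when single libraries were left out.

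Among the other beta isotypes no difference exceeded the spread between replicates. Tubb5, the widespread class I beta tubulin, lay at 69.2 to 78.4 CPM in MR and 60.3 to 88.9 CPM in Sham, with a log2 fold change of −0.01 (SE 0.10, edgeR adjusted p = 0.987). Its sign changed with scaling by library totals alone (0.04). Tubb2a, a beta tubulin abundant in brain, had a log2 fold change of 0.10 (SE 0.10) and lay at 14.4 to 18.6 CPM in MR and 13.8 to 17 CPM in Sham. Tubb2b, its near copy, was at 0.20 (SE 0.20), and Tubb6 at −0.10 (SE 0.10), with 17.6 to 23.2 CPM in MR and 20.7 to 25 CPM in Sham.

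**Figure D2:**
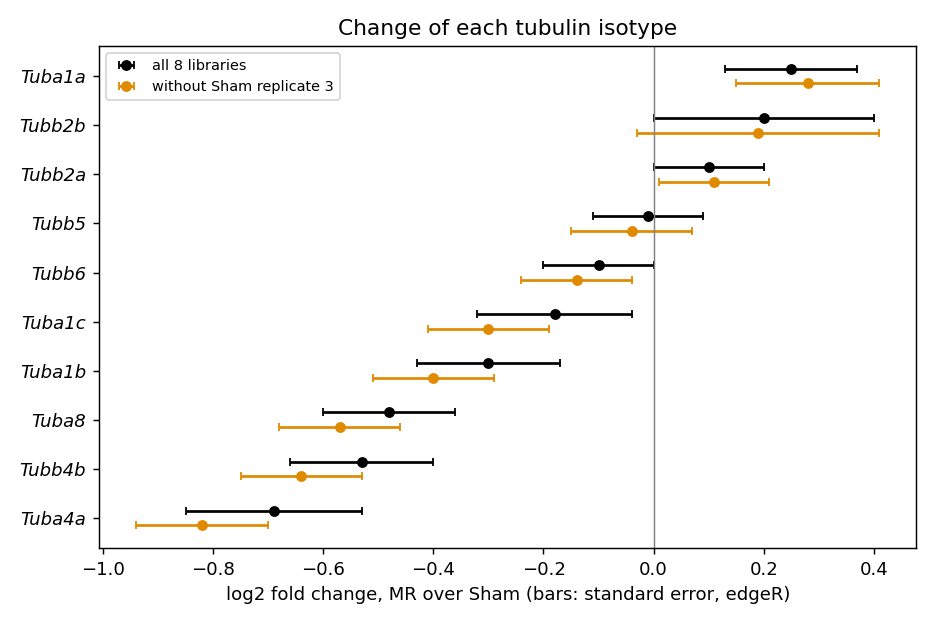
Log2 fold change of each isotype, MR over Sham, with standard errors from edgeR, for all 8 libraries (black) and without Sham replicate 3 (orange). Tuba4a, Tubb4b and Tuba8 lie lowest at −0.69, −0.53 and −0.48, and at −0.82, −0.64 and −0.57 without that library.

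The make-up of the alpha and beta tubulin pools was described as the percent of summed TPM that each isotype held within the alpha or the beta genes. No test was made because the shares combine the chosen genes. The shares of a pool add up to the whole, so a smaller share of an abundant isotype raises the others without a change in their own level. Tuba4a held 51.2, 48.3, 46.4 and 49.5% of the alpha pool in MR libraries, against 59.6, 57.5, 52.4 and 54.5% in Sham libraries. All MR shares were lower than all Sham shares, and the means differed by −7.16 percentage points. Tuba1a held 10.7, 12.3, 14 and 10.4% in MR and 6.75, 6.56, 9.8 and 5.9% in Sham, also without overlap. Its CPM overlapped between the groups, and the split of reads among the Tuba1 genes is uncertain. The share of Tuba8 overlapped between the groups, at 19.7 ± 1.53% in MR and 19.9 ± 1.65% in Sham (SD, n = 4 each). Tuba1b held 13.8 ± 0.775% in MR and 12.1 ± 0.828% in Sham, and Tuba1c 5.81 ± 0.292% in MR and 4.7 ± 0.583% in Sham.

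In the beta pool Tubb4b held 53.1, 53.5, 52.9 and 59.1% in MR libraries, against 63.5, 67, 59.1 and 65.1% in Sham libraries. The means differed by −9.04 percentage points, and MR replicate 4 lay just below Sham replicate 3, both at 59.1% once rounded. Tubb5 held 23.6 ± 2.37% in MR and 18.9 ± 2.01% in Sham, overlapping through MR replicate 4 at 20.1%. Tubb2a held 10.7 to 12.6% in MR and 7.84 to 10.3% in Sham. Tubb6 held 9.3 ± 0.809% in MR and 8.04 ± 0.583% in Sham, and Tubb2b 1.1 ± 0.312% in MR and 0.765 ± 0.121% in Sham. With the length of 1 representative transcript per gene in place of all exons, chosen after seeing the data, the difference was −7.0 points for Tuba4a and −8.78 points for Tubb4b.

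**Figure D3:**
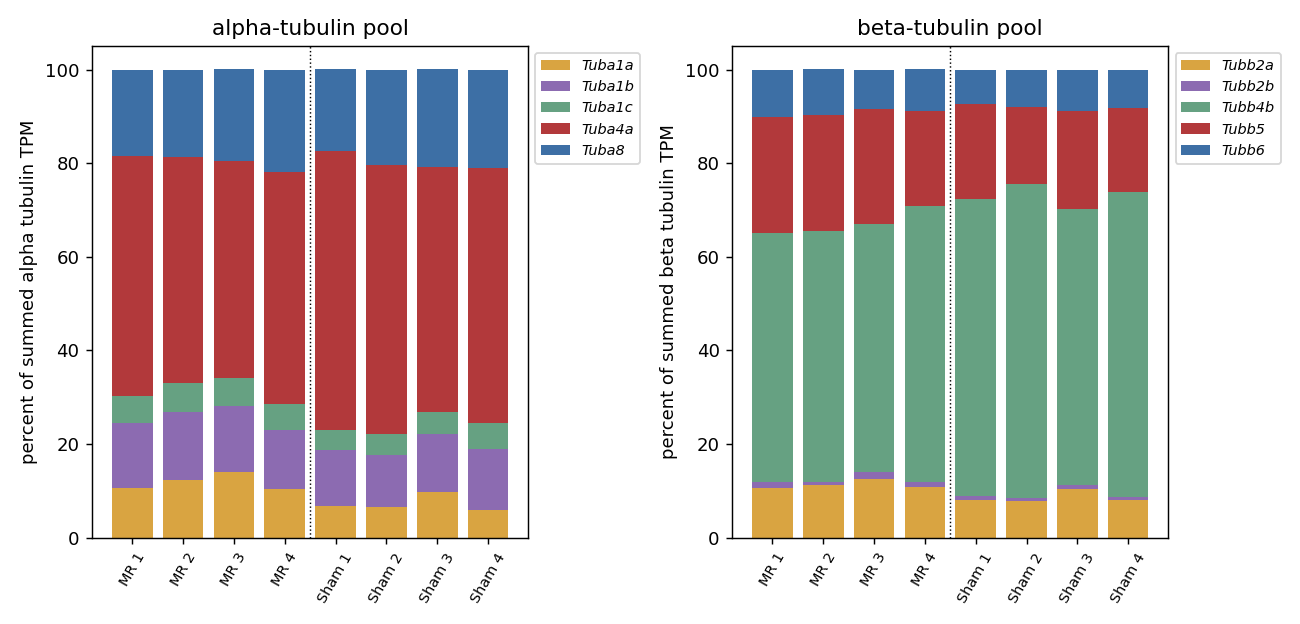
Percent of the summed alpha (left) and beta (right) tubulin TPM held by each isotype, with a stacked bar per library, MR libraries left of the dotted line and Sham libraries right of it. The Tuba4a segment spans 46.4 to 51.2% in MR and 52.4 to 59.6% in Sham, and the Tubb4b segment 52.9 to 59.1% in MR and 59.1 to 67% in Sham.

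The summed alpha level was 365, 403, 369 and 449 TPM in MR and 645, 496, 422 and 586 TPM in Sham, and the summed beta level was 196, 219, 204 and 252 TPM in MR and 284, 245, 224 and 297 TPM in Sham. Both sums overlapped between the groups: MR replicate 4 lay above Sham replicate 3 in the alpha sum and above Sham replicates 2 and 3 in the beta sum. The mean of the alpha sum was −0.44 and that of the beta sum −0.27 on the log2 scale, MR over Sham. The ratio of alpha to beta sums was 1.78 to 1.86 in MR and 1.88 to 2.27 in Sham. The ratio of Tuba4a to Tuba1a was 4.81, 3.91, 3.31 and 4.75 in MR, against 8.83, 8.78, 5.35 and 9.24 in Sham.

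Isotypes also varied together among replicates of 1 group. After the group mean of log2 CPM was subtracted, Tuba8 and Tubb4b had a Pearson correlation of 0.99 (Spearman 1) over the 8 libraries, and Tuba4a had 0.85 with Tubb4b and 0.80 with Tuba8 (Spearman 0.93 for both). Tuba1b and Tuba1c had 0.95 (Spearman 0.98), a pair that shares much sequence. Tuba1a had its highest values with Tubb2a (0.72) and Tubb5 (0.65, Spearman 0.67 for both), but 0.18 with Tuba4a and 0.03 with Tubb4b. The isotypes did not form separate sets. Tubb5 had 0.65 with Tuba4a and 0.86 with Tuba1b (Spearman 0.64 and 0.93). Tuba1b had 0.86 with Tuba4a (Spearman 0.81), and Tuba1c had 0.81 with Tubb4b (Spearman 0.76). The points share library and depth, and the values only describe these libraries. Among 13317 other genes averaging at least 1 CPM, those most like Tuba4a were Mrps35 and Mrpl34, which encode mitochondrial ribosomal proteins, at r = 0.993 and 0.987 (Spearman 1 for both), and Pradc1 at 0.986 (Spearman 0.98). Those most like Tubb4b were Gal3st2c, Ppt2 and Tial1, at 0.986, 0.981 and 0.973 (Spearman 0.93, 0.98 and 0.95). Of these 6 genes none passed between the groups in edgeR, with adjusted p from 0.196 for Mrps35 to 0.947 for Ppt2.

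**Figure D4:**
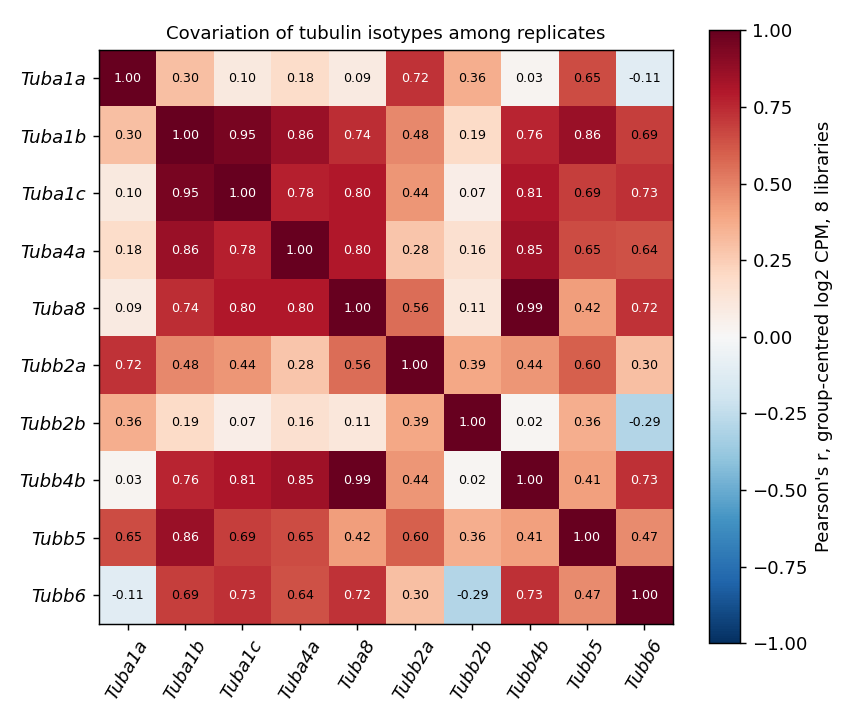
Pearson correlation of log2 CPM between isotypes over 8 libraries after subtraction of the group means, on a colour scale from −1 (blue) to 1 (red). Tuba8 with Tubb4b (0.99) and Tuba1b with Tuba1c (0.95) are the darkest pairs, and Tuba1a is pale against Tuba4a (0.18) and Tubb4b (0.03).

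The promoters of the 3 abundant isotypes are shown because these genes were the lowest in MR and varied together. The RefSeq table for GRCm38.p6 held promoters of 8 isotypes, and Tubb2b and Tubb6 were not matched. Each line gives the 250 bases before the RefSeq start, 5′ to 3′ in the direction of transcription. CCAAT (bound by NF-Y) and GGGCGG (bound by SP1) are in capitals wherever they occur on either strand. The Tuba4a window lies wholly inside the GENCODE gene, which on the minus strand starts at 75219865, so the bases before that start were not searched. The Tuba8 window runs past the GENCODE start at 121210696.
Tuba4a (chr1:75219295-75219544, minus strand): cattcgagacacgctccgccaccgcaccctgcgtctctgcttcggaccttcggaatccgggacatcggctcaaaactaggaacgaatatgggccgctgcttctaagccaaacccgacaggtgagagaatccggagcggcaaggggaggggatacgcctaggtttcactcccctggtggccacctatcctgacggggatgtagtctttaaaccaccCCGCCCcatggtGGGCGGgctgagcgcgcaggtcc
Tubb4b (chr2:25224703-25224952, minus strand): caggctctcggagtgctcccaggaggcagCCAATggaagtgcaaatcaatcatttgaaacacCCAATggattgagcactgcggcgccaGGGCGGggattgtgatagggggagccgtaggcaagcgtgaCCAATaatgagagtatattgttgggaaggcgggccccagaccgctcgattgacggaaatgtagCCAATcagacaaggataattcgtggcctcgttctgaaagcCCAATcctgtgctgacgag
Tuba8 (chr6:121210484-121210733, plus strand): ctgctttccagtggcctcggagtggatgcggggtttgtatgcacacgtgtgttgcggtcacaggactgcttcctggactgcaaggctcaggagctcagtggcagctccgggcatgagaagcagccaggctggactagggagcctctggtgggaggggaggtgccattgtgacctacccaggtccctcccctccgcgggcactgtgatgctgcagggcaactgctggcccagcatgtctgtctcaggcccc
In the window from 250 bases before to 50 after the start, Tubb4b held 5 CCAAT matches, which began 221, 188, 122, 59 and 19 bases before the start, all on the coding strand. The windows of Tuba4a and Tuba8 held 0. Of 32851 mouse promoters of the same length 37.4% held at least 1. GGGCGG, in 35.7% of all promoters, occurred 2 times in Tuba4a, 35 and 23 bases before the start on opposite strands, 2 times in Tubb4b, of which 1 runs across the start and is not capitalised, and 0 times in Tuba8. CATTCC, the core bound by TEAD factors, occurred in 14.7% of all promoters and among the isotypes in Tubb5. The CArG box bound by SRF occurred in 1.63% of all promoters and in 0 of these 8. The capitalised matches do not overlap each other. A match is a string of letters, and these 3 windows had no motif searched here in common.

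Around the tubulins, no tested gene of the lists that make, modify and use microtubules passed in edgeR. Of the 7 tested further tubulins 0 passed in edgeR. Tubb3, the neuronal beta tubulin, was at 0.886 ± 0.198 CPM in MR and 0.951 ± 0.213 CPM in Sham (SD, n = 4 each), and Tubb1, the platelet isotype, at 0.364 to 0.532 CPM in MR and 0.284 to 0.540 CPM in Sham. Tubd1, a tubulin of the centriole, was at 9.26 ± 0.776 CPM in MR and 7.78 ± 0.331 CPM in Sham (SD, n = 4 each; edgeR adjusted p = 0.223). Tubb4a, a beta tubulin of brain, had a log2 fold change of 0.22 (SE 0.26), and Tubg2, a gamma tubulin, 0.11 (SE 0.17). Of 21 folding genes (chaperonin subunits, prefoldins and tubulin cofactors) 0 passed, with a median log2 fold change of −0.04. The lowest p in that list was that of Tbcel, a cofactor-like gene, at 0.29 (SE 0.09, adjusted p = 0.14), followed by the prefoldin genes Pfdn5 at −0.23 and Pfdn6 at −0.28 (adjusted p 0.216 and 0.228 in edgeR).

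The tubulin modification list, 18 tested genes with a median log2 fold change of 0.00, also held 0 calls in edgeR. Vash1, a vasohibin that removes the final tyrosine of alpha tubulin, had 13.1, 12.8, 13.5 and 10.6 CPM in MR, against 6.06, 6.92, 11.4 and 6.05 CPM in Sham. Sham replicate 3 lay among the MR libraries, and the other Sham libraries lay below all of them. Its log2 fold change was 0.71 (SE 0.18, edgeR adjusted p = 0.0993), and the adjusted p was 0.00651 in DESeq2, 0.0245 in limma-voom and 0.000741 in edgeR without Sham replicate 3. Svbp, the partner that vasohibins need, was at −0.02 (SE 0.14), and Ttl, the ligase that restores the tyrosine, at 0.08 (SE 0.08). Ttll1, which adds glutamate chains to tubulin tails, lay at 52.8 to 57.4 CPM in MR and 58.2 to 64.5 CPM in Sham (log2 fold change −0.20, edgeR adjusted p = 0.146, DESeq2 0.0459).

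Among 23 microtubule-associated protein genes the median log2 fold change was 0.08, and 0 passed in edgeR. In 4 of them (Map1b, Clip2, Mapre3 and Mtus1) all MR values lay above all Sham values, as in 4.19% of all genes tested. Map1b, which stabilises microtubules in growing cell processes, had 19.2, 17.8, 20.9 and 18.3 CPM in MR and 10.4, 12, 15.9 and 14.5 CPM in Sham. Its log2 fold change was 0.53 (SE 0.12), with an adjusted p of 0.065 in edgeR, 0.00392 in DESeq2 and 0.018 in limma-voom. Clip2, a plus-end binding protein, was at 0.58 (SE 0.14, adjusted p 0.0699 in edgeR and 0.00611 in DESeq2). Map4, the main microtubule-binding protein of heart muscle, was at −0.00 (SE 0.09, edgeR adjusted p = 0.996).

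The remaining microtubule lists held 0 calls in edgeR among 11 destabilisers, 13 nucleation genes and 20 motor genes tested, with medians of 0.14, 0.01 and −0.01. Of the 11 destabilisers 8 had a positive log2 fold change and 3 a negative one. Fign, a severing enzyme, was at −0.41 (SE 0.14, adjusted p = 0.176 in edgeR and 0.0126 without Sham replicate 3). Stmn4 was at 1.47 (SE 0.55, edgeR adjusted p = 0.222), with 0.344 to 0.931 CPM in MR and 0.0432 to 0.474 CPM in Sham. Fignl1 was at 0.76 (SE 0.34, edgeR adjusted p = 0.307). In the nucleation list Pcnt, a scaffold of the centrosome, was at −0.34 (SE 0.11, adjusted p = 0.176 in edgeR and 0.0492 in limma-voom). Kif5b, the conventional kinesin heavy chain of most cells, lay at 188 to 230 CPM in MR and 162 to 186 CPM in Sham (log2 fold change 0.24, edgeR adjusted p = 0.159). Tubulin messages are also degraded when free dimers are in excess, through TTC5, which in human cells recognises the first residues of new tubulin on the ribosome. The bases that encode those residues read atgCGCGAGTGC in Tuba4a and atgAGGGAGATC in Tubb4b, with the codons after the start in capitals; the last of them encodes cysteine in the alpha and isoleucine in the beta isotypes printed above. Ttc5 was at 13.4 ± 0.542 CPM in MR and 12.6 ± 1.18 CPM in Sham (SD, n = 4 each; edgeR adjusted p = 0.701).

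Of 10 intermediate filament genes tested, 1 rose and 0 fell in edgeR, while 0.241% of all genes rose and 0.217% fell. Nes, which encodes nestin, had 56.9, 63.3, 60 and 54.6 CPM in MR, against 42.2, 38.2, 49.7 and 39.4 CPM in Sham. All MR libraries lay above all Sham libraries, and the log2 fold change was 0.47 (SE 0.09, edgeR adjusted p = 0.034). When libraries were left out in turn the call was lost in 6 of 8 cases, without Sham replicates 2 and 4 and without each MR replicate, with log2 fold changes of 0.42 to 0.55 and edgeR adjusted p of 0.00159 to 0.149. Des, which encodes the desmin to which detyrosinated microtubules bind, was at −0.04 (SE 0.07), and Vim, the vimentin of non-muscle cells, at 0.22 (SE 0.11, edgeR adjusted p = 0.372).

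**Figure D5:**
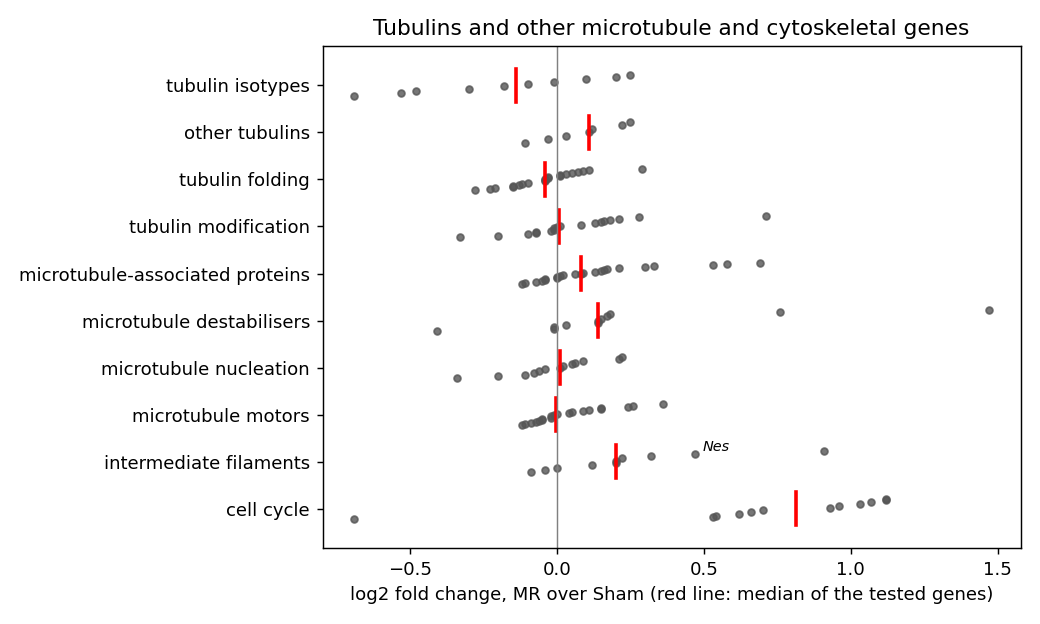
Log2 fold change, MR over Sham, of every tested gene (grey points) in the tubulin isotypes and in 9 lists of microtubule, filament and cell cycle genes, with the median of each in red. The isotypes reach lowest with Tuba4a at −0.69, next to Cenpf at −0.69 in the cell cycle list, and Nes at 0.47 is the point past the threshold over all genes.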

How the data were processed

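The authors deposited unnormalized read counts, as whole numbers for each Ensembl gene and library. The submitters' processing notes name HISAT2 2.0.5 and mm10 but give them no role. The counter, its annotation and its strand setting are not given in these sources. Per the labels' protocols, frozen heart was powdered, RNA taken up in TRIzol and sequenced from ABclonal mRNA libraries. Genes with 2 reads outnumbered genes with 1 read by 2.27 to 2.82 times, so both mates of a pair may have been counted, which was not tested.

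Symbols, positions and exon lengths came from GENCODE M21 (GRCm38), and 755 of 33105 identifiers stayed without a symbol. Genes were filtered with filterByExpr (minimum count 10, minimum total count 15), scaled by TMM and compared with the robust quasi-likelihood F test of edgeR 4.0.16 in R 4.3.3, which was tested on simulated data. The standard error is the log2 fold change divided by the square root of F. DESeq2 1.42.0, limma-voom (limma 3.58.1), other scalings and filters and the omission of each library were alternatives. Log2 CPM used a prior count of 2. The numbers of the replicates only name libraries.

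The coding ends of some isotypes are not reported here. The isotypes, gene lists and tests were chosen with earlier results of these data known. Genes named beside the isotypes are, in each list, those past the threshold and otherwise up to 4 with the lowest p. Not every gene this rule admits is described. Tubb1, Svbp, Ttl, Map4, Ttc5, Des and Vim were added for their role, and cell type markers were named after their values were seen.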

Additional observations from a re-analysis of the deposited data

Results flagged for a closer look

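In all, 4 shares of the tubulin pools held a library far from the other 3 of its group, by the ratio of the gap to the group's range, in 44 groups examined. Chance flags about 1 in 20 groups. MR replicate 4 held 59.1% Tubb4b in its beta pool, against 52.9 to 53.5% in the other MR libraries, and 20.1% Tubb5, against 24.7 to 24.8%. Sham replicate 3 held 10.3% Tubb2a in its beta pool, against 7.84 to 8.08% in the other Sham libraries. Sham replicate 1 held 17.5% Tuba8 in its alpha pool, against 20.3 to 20.9%. No isotype's CPM was flagged in this way.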

How the results depend on the processing

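Over the whole table edgeR called 76 genes, against 936 with no filter on low counts, 688 in DESeq2 and 429 in limma-voom, and 3 (without Sham replicate 2) to 887 (without Sham replicate 3) when a library was left out. Leaving out Sham replicate 4 gave 6 calls, and leaving out MR replicates 1 to 4 gave 16, 10, 14 and 41. The 0 calls among the isotypes became 4 with no filter, 3 in DESeq2 and 3 in limma-voom, and ranged from 0 to 4 when a library was left out, with 4 without Sham replicate 3 and 2 (Tuba8 and Tubb4b) without MR replicate 4. All these isotypes were lower in MR. Over the whole table the calls were 517 higher and 419 lower with no filter, and 25 higher and 16 lower without MR replicate 4. The share of all genes called was not computed for these 2 settings, so their isotype counts have no background beside them. The 1 call among the microtubule, filament and cell cycle lists became 11 with no filter, 8 in DESeq2 and 4 in limma-voom. With a library left out it ranged from 0 to 11. The 11 came without Sham replicate 3, and 0 came without Sham replicates 2 and 4 and without each MR library. Over all genes DESeq2 called 2.37% higher and 2.22% lower among those with an adjusted p. Limma-voom called 1.37% higher and 1.22% lower, and edgeR without Sham replicate 3 called 2.96% higher and 2.32% lower. The list counts thus rose and fell with those of the whole table. The cause was not tested. Of the calls 52.6% were higher in MR, and 75.7% with scaling by library totals alone. With a library left out this share ran from 33.3% of 3 calls (without Sham replicate 2) to 75% of 16 (without MR replicate 1). It was 35.5% of 93 calls without Sham replicate 1. Tubb5 changed sign to 0.04 with library totals, 0.08 in limma-voom, 0.10 and 0.00 without Sham replicates 1 and 4, and 0.01 without MR replicates 1 and 4, in a left-out range of −0.09 to 0.10. The other 9 isotypes kept their sign in all 15 alternatives. The differences in the shares of Tuba4a and Tubb4b and in the summed levels moved by less than 1 SD in every alternative run. No paired analysis was possible because the labels carry no replicate numbers shared by the groups. Tubb2b, with 67 to 140 reads per library, is the isotype most limited by depth.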

Other observations

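Cell cycle genes, whose products include the mitotic spindle's regulators, were measured beside the tubulins. Of 12 tested in edgeR 0 passed, 3 were higher and 1 lower at an unadjusted p under 0.05, and DESeq2 called 2 higher (Ccna2 and Cdk1) and 1 lower (Cenpf). Over all genes 7.78% were higher and 7.29% lower at that unadjusted p, and DESeq2 called 2.37% higher and 2.22% lower. The median log2 fold change was 0.82, with 11 of 12 positive, while the median over all genes tested was 0.00. The list's median was 1.30 without Sham replicate 3 and 0.53 without MR replicate 2. Ccna2, a cyclin of S phase and mitosis, was at 1.7 ± 0.722 CPM in MR and 0.778 ± 0.4 CPM in Sham (SD, n = 4 each; edgeR adjusted p = 0.161). Cdk1, the kinase of mitotic entry, was at 1.63 ± 0.721 CPM in MR and 0.77 ± 0.279 CPM in Sham (edgeR adjusted p = 0.154). Cenpf, which encodes a large protein of the kinetochore, had the opposite sign, with 24.7, 14.9, 25.2 and 15.3 CPM in MR and 32.2, 34, 26.4 and 36.1 CPM in Sham (log2 fold change −0.69, edgeR adjusted p = 0.131).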
